A study of Mus musculus with 6 samples.

Results

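MicroRNA processing and Argonaute genes were followed through 10 genes, Dicer1, Drosha, Dgcr8, Xpo5, Ago1, Ago2, Ago3, Ago4, Tarbp2 and Prkra. They were taken as every probe set that the platform annotation lists under one of these symbols alone, that is 10 of the 19938 genes with a symbol of their own and 12 of 23410 annotated probe sets. Ago2 and Tarbp2 had 2 probe sets each and the other genes 1. The arrays were whole-transcript Affymetrix arrays hybridised with total RNA of C2C12 cells, an established mouse line of myoblasts that fuse into myotubes when serum is lowered. Cells were grown in 10% fetal bovine serum, moved to 2% horse serum at about 90% density and transfected on day 1 of differentiation. One group of 3 arrays received an siRNA against mouse H19 (simH19), the other group of 3 a control siRNA (siCon), and RNA was taken 40 h after transfection. The labels call the cells of both groups wild type. Nothing in the labels tells whether the replicates were separate cultures, and the p-values then reflect only array-to-array spread, which may be technical. A knockdown of H19 by an siRNA also tests whatever else that reagent does.

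A microRNA gene is transcribed as a long primary transcript. The Microprocessor, made of the nuclease Drosha and its RNA-binding partner Dgcr8, cuts out a hairpin in the nucleus, and the hairpin is carried to the cytoplasm by exportin-5 (Xpo5). There Dicer1, accompanied by the double-stranded RNA-binding proteins Tarbp2 or Prkra, trims it to a short duplex, and an Argonaute protein keeps one strand as the guide that finds target messages. All 4 mammalian Argonautes bind microRNAs, and Ago2 is the one best known for cutting a fully matched target, which is also how a transfected siRNA acts. The H19 transcript, a long noncoding RNA of an imprinted locus, is the source of miR-675 and can bind let-7 microRNAs. Dicer1 is itself a known let-7 target, and in muscle Dicer1 is required for normal development of the fibres.

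The microRNAs that tie H19 to this machinery are shown with their seed, bases 2 to 8, in capitals, from RefSeq (GRCm38.p6). The first 3 are let-7 members, shown because Dicer1 is a let-7 target, and the last 2 are the arms of the hairpin that H19 hosts.
let-7a-5p: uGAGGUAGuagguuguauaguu
let-7g-5p: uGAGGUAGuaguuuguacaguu
let-7i-5p: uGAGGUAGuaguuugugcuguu
miR-675-5p: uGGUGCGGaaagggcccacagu
miR-675-3p: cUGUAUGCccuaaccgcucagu
The let-7 members shown share the seed GAGGUAG, and neither miR-675 arm has it. let-7a-5p is encoded at chr13:48538239-48538260 on the minus strand, let-7g-5p at chr9:106178846-106178867 on the plus strand and let-7i-5p at chr10:122985698-122985719 on the minus strand. The miR-675 arms lie at chr7:142577112-142577133 and chr7:142577078-142577099 on the minus strand, inside the H19 gene.

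The knockdown was read from probe set 10569341, which the annotation assigns to Mir675 together with Supt6, because H19 had no entry under its own symbol. It was at 10.38, 10.28 and 10.37 on the H19 siRNA arrays, against 12.21, 12.22 and 12.27 on the control siRNA arrays. That signal fell to 26.9% of the control level (limma adjusted p = 2.11e-05). Array medians lay between 6.73 and 6.78, the lowest pairwise r was 0.9958, and no pair of arrays was identical. The label of the line was checked with muscle markers: Actc1, Tnnt2, Des and Acta1 read above 12 in both groups, at 12.76, 12.71, 12.52 and 12.57 on H19 siRNA arrays and 12.77, 12.45, 12.46 and 12.47 on control siRNA arrays. These were the brightest of 10 muscle markers, whose median level was 11.66 on H19 siRNA arrays and 11.57 on control siRNA arrays. Myh3 and Tnnc2 were the dimmest, at 9.31 and 9.28 on H19 siRNA arrays and 9.34 and 9.38 on control siRNA arrays. Of 10 muscle markers 1, Tnnt2, passed the limma test, higher by 0.26 on the log2 scale (adjusted p = 0.0465). That call was made under 6 of the 15 other settings of the fit and not under 9, namely median centring, all rows, the replicate block and each removal of a single array, with limma adjusted p-values of 7.83e-06 to 0.358 and differences of 0.24 to 0.27. At an unadjusted limma p under 0.05, 4 of the 10 were higher, beside 6.39% of annotated probe sets. They were Tnnt2, Acta1 (0.10) and the myogenic transcription factors Myog (0.22, limma adjusted p = 0.0831) and Myod1 (0.23, limma adjusted p = 0.103). Over all 10 markers 6 differences were above 0 and 4 below, the lowest that of Tnnc2 (-0.10). The part of these markers in the members' values was not tested. Markers of other cell types had median levels, in H19 siRNA and control siRNA cells, of 5.70 and 5.66 for leukocyte and 5.86 and 5.85 for endothelial markers. For adipocyte markers they were 5.85 and 5.74, and for epithelial markers 6.08 and 6.15. Single markers read higher: Cd14 at 8.19 and 8.33, Cd68 at 7.86 and 8.05 and Krt14 at 7.52 and 7.46. Of these 19 markers 0 passed the limma test, where 0.184% of annotated probe sets did. At an unadjusted limma p under 0.05 there was 1, the macrophage marker Cd68 (difference -0.19), where 10.7% of annotated probe sets passed.

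None of the microRNA processing or Argonaute probe sets passed the test. At an adjusted p under 0.05 in limma, 0 of 12 member probe sets were called, where 0.184% of all annotated probe sets were (43, of which 26 were higher and 17 lower with H19 siRNA). At an unadjusted p under 0.05, 1 member probe set passed, that of Dicer1, where 10.7% of annotated probe sets did (6.39% higher and 4.26% lower). The 3 arrays of one group lay beyond the 3 of the other for 2 member probe sets, Dicer1 and Ago3, both lower with H19 siRNA, against 17.5% of annotated probe sets in either direction, 10.4% higher and 7.1% lower. Both shares of members are near those of the whole table when the 2 directions are pooled. In the lower direction alone, 1 of 12 stood beside 4.26% and 2 of 12 beside 7.1%. These member shares are above those of the table but rest on 1 and 2 probe sets. The member differences ran from -0.11 to 0.04 on the log2 scale with a median of -0.017, 5 above 0 and 7 below, beside a median of 0.013 over all annotated probe sets. The 95% intervals of all 12 lay within a 1.2-fold change either way, as did those of 80% of annotated probe sets. Values from bulk RNA do not tell fewer cells of a kind from less RNA per cell, and myoblasts and myotubes were not separated here.

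**Figure D1:**
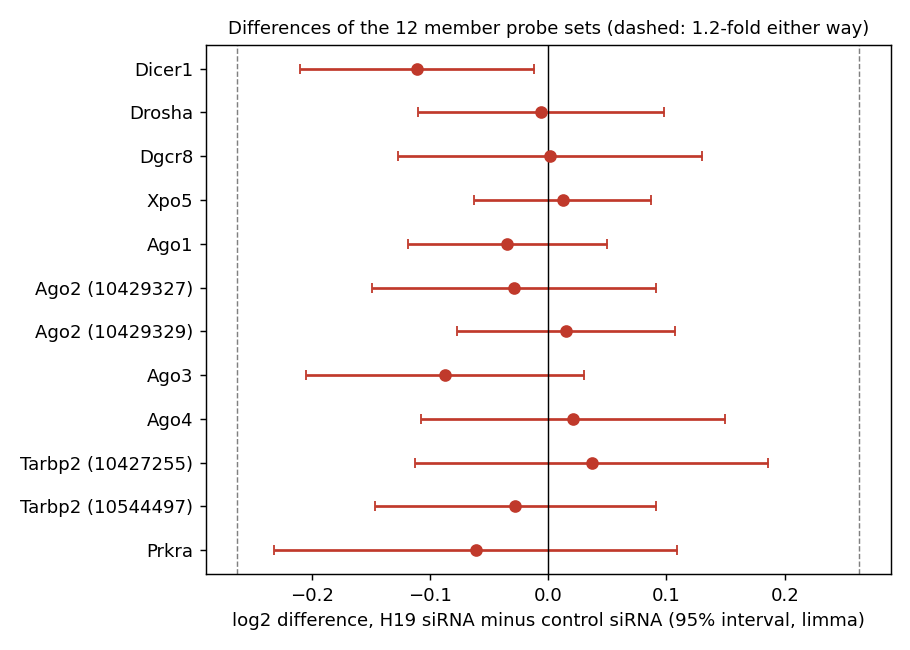
Log2 differences, H19 siRNA minus control siRNA, of the 12 member probe sets with their 95% intervals from limma (3 arrays per group). The Dicer1 interval alone leaves out 0, from -0.21 to -0.01 before any adjustment for the number of probe sets tested, and all intervals stay inside the dashed lines at 1.2-fold.

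Dicer1, the nuclease that trims the hairpin, had the largest difference of the members and was lower with H19 siRNA on every array. Its probe set (10402444) read 10.09, 10.02 and 10.13 on the H19 siRNA arrays, against 10.19, 10.22 and 10.16 on the control siRNA arrays. The groups did not overlap, and the highest H19 siRNA array and the lowest control siRNA array, both replicate 3, lay closest to each other. The means were 10.08 ± 0.06 with H19 siRNA and 10.19 ± 0.03 with control siRNA (SD, n = 3 each). The difference was -0.11 on the log2 scale (SE 0.04), or -7.40% with a 95% interval from -13.5% to -0.844%. In limma its unadjusted p was 0.0327 and its adjusted p 0.418, and 7.82% of annotated probe sets had a smaller p. An exact permutation test of 3 against 3 arrays, two-sided, gave 0.1, the smallest value that this design allows.

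Drosha and Dgcr8, the nuclease and the RNA-binding partner of the Microprocessor, had differences close to 0. Drosha (10423185) was at 9.87, 9.79 and 9.88 on H19 siRNA arrays and 9.85, 9.90 and 9.80 on control siRNA arrays. Dgcr8 (10438313) was at 9.34, 9.33 and 9.50 on H19 siRNA arrays and 9.40, 9.41 and 9.35 on control siRNA arrays. The groups overlapped for both genes, and the highest Dgcr8 value was that of H19 siRNA replicate 3. Drosha differed by -0.0057 (95% interval -0.11 to 0.10, limma adjusted p = 0.976) and Dgcr8 by 0.0013 (-0.13 to 0.13, limma adjusted p = 0.995). Neither difference had a settled sign: that of Drosha was 0.011 with array weights, and that of Dgcr8 was -0.021 after each array was centred on its median.

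Xpo5, the exporter of the hairpins, was the steadiest of the members. Its probe set (10445458) read 10.56, 10.56 and 10.56 on H19 siRNA arrays and 10.56, 10.56 and 10.53 on control siRNA arrays. The SD was 0.0016 among H19 siRNA arrays and 0.019 among control siRNA arrays, and the standard error of its difference was smaller than that of all but 1.9% of annotated probe sets. The difference was 0.012 with a 95% interval from -0.06 to 0.09, or from -4.22% to 6.21%, the narrowest of the 12 (limma adjusted p = 0.915). After median centring it was -0.010.

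**Figure D2:**
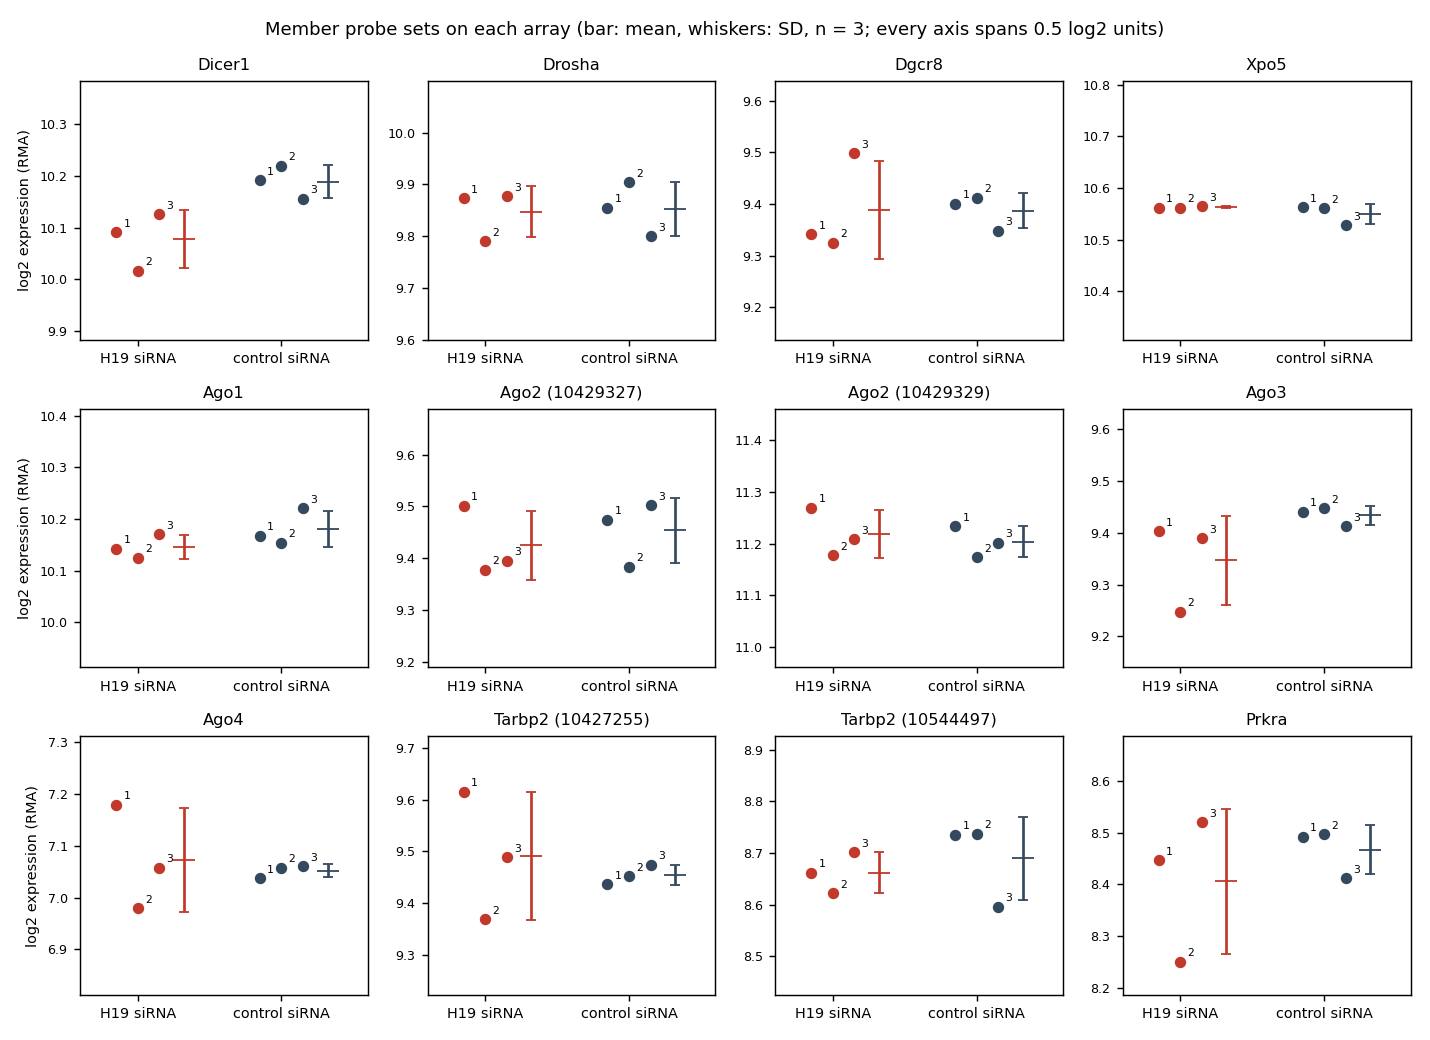
Log2 expression of each member probe set on the 3 H19 siRNA arrays (red, left) and the 3 control siRNA arrays (dark, right), numbered by replicate, with mean and SD. Every panel spans the same range of log2 units, so that the tight Xpo5 values can be set beside the wider spread of Prkra, whose SD was 0.14 with H19 siRNA and 0.05 with control siRNA.

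Tarbp2 and Prkra, the double-stranded RNA-binding partners of Dicer1, did not pass the test with any of their 3 probe sets. The first Tarbp2 probe set (10427255) read 9.62, 9.37 and 9.49 on H19 siRNA arrays and 9.44, 9.45 and 9.47 on control siRNA arrays. The second (10544497) read 8.66, 8.62 and 8.70 on H19 siRNA arrays and 8.74, 8.74 and 8.60 on control siRNA arrays. The groups overlapped for both, and the first spread more among H19 siRNA arrays than among control siRNA arrays (SD 0.12 and 0.02). Their differences were 0.04 (95% interval -0.11 to 0.19) and -0.03 (-0.15 to 0.09), and without H19 siRNA replicate 1 they were -0.025 and -0.028. Both are given as the annotation lists them, and whether the second reads Tarbp2 itself or a copy of it was not tested. The difference between the 2 probe sets on an array averaged 0.83 ± 0.11 with H19 siRNA and 0.76 ± 0.10 with control siRNA (SD, n = 3 each), and an exact permutation test, two-sided, gave p = 0.5.

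Prkra, also known as an activator of the antiviral kinase Eif2ak2, read 8.45, 8.25 and 8.52 on H19 siRNA arrays and 8.49, 8.50 and 8.41 on control siRNA arrays (10483856). H19 siRNA replicate 2 was the lowest of the 6 arrays and replicate 3 of the same group the highest, so the control arrays lay inside the range of the H19 siRNA arrays. The difference was -0.06 with the widest interval of the members, from -0.23 to 0.11, or from -14.9% to 7.87% (limma adjusted p = 0.804). Without H19 siRNA replicate 2 it was 0.016.

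The 4 Argonaute genes had 5 probe sets, and 0 passed the test. Ago2, the slicing Argonaute, has a brighter and a dimmer probe set. The brighter one (10429329) read 11.27, 11.18 and 11.21 on H19 siRNA arrays and 11.23, 11.17 and 11.20 on control siRNA arrays. The dimmer one (10429327) read 9.50, 9.38 and 9.40 on H19 siRNA arrays and 9.47, 9.38 and 9.50 on control siRNA arrays. Groups overlapped for both, with differences of 0.015 (95% interval -0.08 to 0.11, limma adjusted p = 0.915) and -0.03 (-0.15 to 0.09, limma adjusted p = 0.874). The brighter minus the dimmer one averaged 1.79 ± 0.02 with H19 siRNA and 1.75 ± 0.05 with control siRNA (SD, n = 3 each), and an exact permutation test, two-sided, gave p = 0.2. Both are given as the annotation lists them, and whether the dimmer one reads the same transcripts of Ago2 as the brighter one, or a copy of the gene, was not tested.

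Ago1, Ago3 and Ago4 are neighbours on mouse chromosome 4, next to each other among the protein-coding genes of the RefSeq table, while Ago2 lies on chromosome 15 with Drosha and Tarbp2. Ago3 (10516348) read 9.40, 9.25 and 9.39 on H19 siRNA arrays and 9.44, 9.45 and 9.41 on control siRNA arrays. Every H19 siRNA array was below every control siRNA array, replicate 2 by the widest margin. The difference was -0.09 (SE 0.05) with a 95% interval from -0.20 to 0.03 and a limma adjusted p of 0.596. Without H19 siRNA replicate 2 it was -0.037.

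Ago1 (10516371) read 10.14, 10.13 and 10.17 on H19 siRNA arrays and 10.17, 10.15 and 10.22 on control siRNA arrays. Ago4 (10516393) read 7.18, 6.98 and 7.06 on H19 siRNA arrays and 7.04, 7.06 and 7.06 on control siRNA arrays. Both genes overlapped between groups, and Ago4 spread more among H19 siRNA arrays (SD 0.10) than among control siRNA arrays (SD 0.01). Ago1 differed by -0.03 (95% interval -0.12 to 0.05, limma adjusted p = 0.772) and Ago4 by 0.02 (-0.11 to 0.15, limma adjusted p = 0.919). The Argonaute genes are close relatives in sequence, and hybridisation of one gene's RNA to another's probes was not tested.

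One H19 siRNA array read low across the members. H19 siRNA replicate 2 was the lowest of the 6 arrays for 9 of 12 member probe sets and the lowest of its own group for 12 of 12. The same array was the lowest of the 6 for 26.3% of all annotated probe sets and for 40.5% of the 11705 with a mean at or above the median, and the lowest of its group for 45.4% and 64.3%. It also had the highest array median (6.78) and the lowest mean r to the other arrays (0.9962), a pattern looked at after the values were seen. The median deviation of the members from their own means was 0.012, -0.062 and 0.0076 on H19 siRNA replicates 1, 2 and 3, and 0.018, 0.014 and -0.0053 on control siRNA replicates 1, 2 and 3. Leaving this array out must raise every member difference, because it was the lowest of its group for all of them. The size of its part was therefore not tested. Without it the median difference was 0.015 in place of -0.017, Dicer1 was at -0.08 (limma adjusted p = 0.480), and Drosha at 0.023. Leaving out any other single array gave medians between -0.034 (without H19 siRNA replicate 3) and -0.0016 (without control siRNA replicate 2).

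The Dicer1 difference was also read relative to the other members on each array, an alternative chosen after seeing the data. Dicer1 is the member with the largest difference, and its groups already lay apart, so this reading is no independent test. The mean of the other 11 probe sets was 9.45, 9.35 and 9.44 on H19 siRNA arrays and 9.44, 9.43 and 9.41 on control siRNA arrays, a difference of -0.014. Dicer1 minus that mean was 0.64, 0.67 and 0.68 on H19 siRNA arrays, against 0.75, 0.78 and 0.74 on control siRNA arrays. The 2 groups did not overlap on this measure, on which replicate 2 no longer stood apart from the other H19 siRNA arrays. It averaged 0.66 ± 0.02 with H19 siRNA and 0.76 ± 0.02 with control siRNA (SD, n = 3 each), a difference of -0.10 with an exact permutation p of 0.1, two-sided, the smallest possible. A ratio within an array shows an unequal reading and does not say which side moved.

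**Figure D3:**
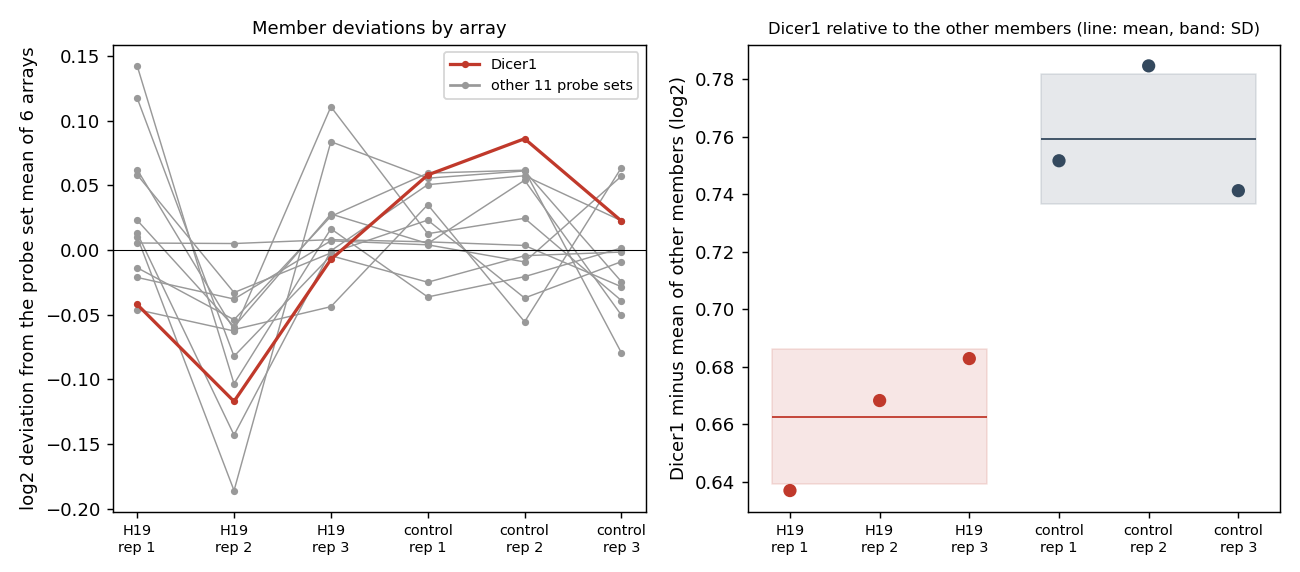
Left, deviation of each member probe set from its own mean over the 6 arrays in log2 units, with Dicer1 in red and the other 11 in grey. Right, Dicer1 minus the mean of the other members per array in log2 units, 0.64 to 0.68 on H19 siRNA arrays (red) and 0.74 to 0.78 on control siRNA arrays (dark), with group means as lines and SD as bands.

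Likeness to Dicer1 over the 6 arrays was ranked among 21653 of the 21789 probe sets with 1 symbol. The closest were Rpl27a, a ribosomal protein gene (Pearson's r = 0.996), Nr3c1, the glucocorticoid receptor (0.995), and Rabgap1l, a Rab GTPase-activating protein (0.994). Whether a probe set left out of this ranking followed Dicer1 more closely was not tested. Nr3c1 read 10.67, 10.62 and 10.70 on H19 siRNA arrays and 10.75, 10.75 and 10.72 on control siRNA arrays. These 6 points share their arrays, including the low second H19 siRNA array, and with so few arrays many probe sets reach a high r. Rpl27a belongs to a family with near-identical copies, so its probe set may not be specific.

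Other genes of the microRNA pathway and relatives of its genes were grouped in 7 lists with 84 genes. The PIWI clade and germline list and the double-stranded RNA-binding list hold relatives rather than pathway genes. Of the 84 genes 80 were measured under a symbol of their own, and 0 passed the test. At an unadjusted limma p under 0.05 there were 5, or 6.25%, of which 4 were higher and 1 lower with H19 siRNA, beside 10.7% of all annotated probe sets. Their differences had a median of 0.0042, with 44 above 0 and 36 below. The other genes of these lists were not analysed here.

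Among 10 Microprocessor partners the median difference was -0.019, with 8 below 0. The helicases Ddx5 and Ddx17, which help Drosha cut some primary transcripts, were at 12.61 ± 0.03 and 11.64 ± 0.02 with H19 siRNA and 12.62 ± 0.02 and 11.63 ± 0.02 with control siRNA (SD, n = 3 each). Adar, the interferon-inducible adenosine deaminase that edits double-stranded RNA, read 9.67, 9.57 and 9.66 on H19 siRNA arrays and 9.46, 9.51 and 9.56 on control siRNA arrays. The groups did not overlap, by a margin that is small beside the spread within them, and the difference of 0.12 had a limma adjusted p of 0.408. The 10 genes of export and Argonaute loading, such as the GTPase Ran that exportin-5 needs and the Hsp70 and Hsp90 chaperones that open Argonaute for its duplex, had a median of 0.011. Their differences ran from -0.036 to 0.073, the last that of Ran (limma adjusted p = 0.604).

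The 31 silencing effectors, which act downstream of Argonaute, had a median difference of -0.0004, with 15 above 0 and 16 below. Among them the Argonaute-binding scaffolds Tnrc6a, Tnrc6b and Tnrc6c differed by -0.020, -0.032 and -0.0004. Mov10, an RNA helicase found with Argonaute, read 10.19, 10.16 and 10.16 on H19 siRNA arrays and 10.11, 10.08 and 10.08 on control siRNA arrays. Lsm14a, a protein of the cytoplasmic granules where silenced messages gather, read 11.06, 11.04 and 11.13 on H19 siRNA arrays and 10.99, 10.99 and 10.98 on control siRNA arrays. Groups did not overlap for either, with differences of 0.08 and 0.09 and limma adjusted p-values of 0.452 and 0.462.

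Genes that control let-7 precursors had a median of 0.05 over 8 genes, 6 above 0. Lin28a and Lin28b, which block let-7 maturation, read 6.48 ± 0.20 and 4.81 ± 0.07 with H19 siRNA and 6.38 ± 0.09 and 4.91 ± 0.08 with control siRNA (SD, n = 3 each). The groups overlapped for both, with limma adjusted p-values of 0.784 and 0.567. Lin28a and Lin28b were dim, at the 38.7th and 14.2th percentile of mean level, and whether they were expressed was not tested. The 7 genes of the PIWI clade, germline relatives of the Argonautes, and its germline partners had a median level of 4.83 with H19 siRNA and 4.82 with control siRNA. Tut4 and Tut7, which add uridines to such precursors, differed by 0.06 (limma adjusted p = 0.695) and -0.06 (0.611), and Dis3l2, the nuclease that degrades uridylated precursors, by 0.07 (0.611). Small RNA turnover genes (7) had a median of 0.0004, between -0.06 and 0.07.

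The relatives of Tarbp2 and Prkra among double-stranded RNA-binding genes held the widest differences of the 7 lists, in both directions. Eif2ak2, the interferon-inducible kinase that Prkra activates and Tarbp2 inhibits, read 9.59, 9.57 and 9.63 on H19 siRNA arrays and 9.34, 9.39 and 9.47 on control siRNA arrays. The groups did not overlap, and the difference of 0.19 (95% interval 0.09 to 0.30) had an unadjusted p of 0.00368 and a limma adjusted p of 0.225. It was called once an intensity trend and robust variance were used (adjusted p = 0.0443). That setting called 408 annotated probe sets in place of 43, and 0 member probe sets. Cdkn2aip, a partner of the ARF tumour suppressor, read 9.69, 9.58 and 9.54 on H19 siRNA arrays and 9.76, 9.78 and 9.69 on control siRNA arrays, and differed by -0.14 (limma adjusted p = 0.397).

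**Figure D4:**
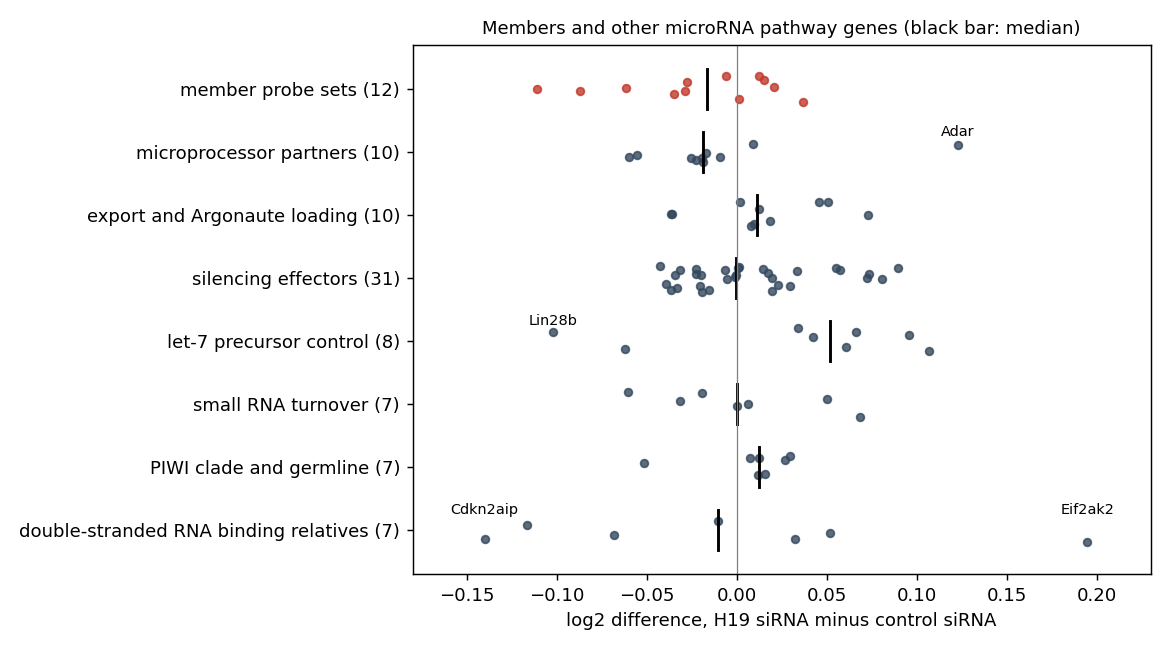
Log2 differences, H19 siRNA minus control siRNA, of the 12 member probe sets (red) and of the measured genes of 7 lists of other microRNA pathway genes and relatives (dark, 1 probe set per gene, number of genes in parentheses), with list medians as black bars. Most points lie close to 0, Eif2ak2 at 0.19 and Cdkn2aip at -0.14 stand at the ends, and no point passed an adjusted p of 0.05.

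For 9 of the 10 genes, all but Ago2, the RefSeq table (GRCm38.p6) held 10 windows reaching 250 bases before to 50 after a start site. Their GC content ran from 59.0% for Tarbp2 to 83.3% for Ago4, beside a median of 52.7% over 32841 windows. The observed over expected CpG ratio ran from 0.51 for Prkra to 1.19 for Drosha and was 1.12 for Dicer1, beside a median of 0.384, and all 10 windows lay above both medians. On the CpG ratio the windows stood between the 58.7th percentile of all windows, for Prkra, and the 99.5th, for Drosha. Dicer1 was close to Drosha and Xpo5 (1.09) on this measure, and a relation of the windows to the expression differences was not tested.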

How the data were processed

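The deposited table holds a log2 expression value for each probe set and array. Per the submitters' processing notes the authors ran RMA, with Affymetrix Expression Console as the software, whose version, like the build, is not given in the sources used here. RMA corrects background, normalises arrays by quantiles and compresses small fold changes near background. Of 35556 rows, 23410 are in GEO's platform annotation, 21789 with 1 symbol and 1621 with several; 21698 of the former matched the RefSeq table and 0 symbols changed. Every annotated probe set kept its own row; the 12146 unlisted rows entered an alternative only. H19 siRNA minus control siRNA was tested in R 4.3.3 with limma 3.58.1 (lmFit, then eBayes; two-sided) without covariates, with Benjamini-Hochberg adjustment over all 23410 and a threshold of 0.05. Standard errors and 95% intervals are moderated.

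Members and lists were chosen with earlier results of these data known. Named were all members, the H19 signal, up to 3 genes per list with an unadjusted p under 0.05, the 3 genes most correlated with Dicer1 and muscle markers; other list genes were chosen after their values were seen. A list gene was read by its probe set with the highest mean. Tested on simulated data for this comparison (10 sets of 23410 probe sets), the fit called 0.4% of differences of 0.125, 31% of 0.25 and 93% of 0.5 on the log2 scale. The simulated noise was normal and independent between probe sets, and few probe sets were changed, so shares called in the real arrays may differ. Detection calls were not used here, and 3 arrays per group limit the precision. Alternatives were variance models, array weights, scalings, filters on dim probe sets, other sets of rows, the replicate number as a block and leaving out each array.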

Additional observations from a re-analysis of the deposited data

How the results depend on the processing

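No member probe set was called under any of the 15 other settings of the fit. The count over the annotated table, 43, became 408 when the variance followed intensity and was fitted robustly, 72 with array weights, 102 and 270 with filters at the 30th percentile and the median, 11 over all rows, and 1 to 13 without single arrays (13 without H19 siRNA replicate 2). With the replicate block 1 was called. Correlations of deviations between same-numbered arrays were -0.020, -0.14 and -0.15, so no positive correlation went with the replicate number. Deviations from a group mean cancel within the group, so these values cannot decide whether same-numbered arrays were handled as pairs. The H19 signal stayed between -1.91 and -1.86 and passed throughout. Of the listed pathway genes and relatives 1 was called with an intensity trend and robust variance, Eif2ak2, one of the double-stranded RNA-binding relatives.

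The Dicer1 difference was negative in every alternative, from -0.14 without H19 siRNA replicate 3 to -0.08 without H19 siRNA replicate 2, with limma adjusted p-values from 0.179 to 0.739. Ago1, Ago3, the dimmer Ago2 probe set and the second Tarbp2 probe set were also negative in every alternative that held them. The sign of the remaining members was not settled. After median centring Dgcr8 was at -0.021, Xpo5 at -0.010, the brighter Ago2 probe set at -0.0071 and Ago4 at -0.0018. Drosha was at 0.011 with array weights, and Dgcr8 at -0.0015 after a second quantile normalisation. Leaving out single arrays gave -0.032 to 0.023 for Drosha, -0.054 to 0.033 for Dgcr8, -0.0099 to 0.036 for the brighter Ago2 probe set, -0.033 to 0.067 for Ago4, -0.025 to 0.098 for the first Tarbp2 probe set and -0.12 to 0.016 for Prkra. They gave -0.048 to -0.015 for Ago1, -0.067 to -0.0042 for the dimmer Ago2 probe set, -0.12 to -0.037 for Ago3, -0.074 to -0.0038 for the second Tarbp2 probe set and 0.0012 to 0.019 for Xpo5. Causes were not tested. Differences of the size seen in the members lie below what 3 arrays per group called reliably in the simulated data.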
